A study of Mus musculus with 24 samples.

Results

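The comparison described here is between 4 livers of 3xTg-AD mice fed a diet enriched in medium-chain triglycerides (MCT) and 4 livers of 3xTg-AD mice fed the control diet. These 8 samples, chosen by their genotype and diet labels, belong to a series of 24 livers from female mice, with 4 livers in each of 6 groups. The 3xTg-AD line (3xTg) is a model of Alzheimer's disease that carries mutant human APP and tau transgenes driven by the neuronal Thy1 promoter. All 8 mice carried these transgenes, and both groups were female. Mice were 3 months old when the diets began and were fed for 6 months. Both diets supplied 70% carbohydrate and 10% protein at 4.1 kcal/g. They differed in fat: 20% long-chain triglyceride in the control diet, and 10% long-chain with 10% medium-chain triglyceride, of octanoic and decanoic acid, in the MCT diet. Further comparisons are used only to place this one: MCT against control diet in B6129SF2/J wild-type (WT) mice, and the 3xTg livers on a ketogenic diet (KD) of 90% long-chain triglyceride and 10% protein without carbohydrate.

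Medium-chain fatty acids reach the liver by the portal vein and enter mitochondria largely without the carnitine shuttle that longer chains need. The liver makes its own sterols through the mevalonate pathway and its own fatty acids through de novo lipogenesis. Both pathways are driven by the sterol regulatory element-binding proteins: SREBP-2, encoded by Srebf2, acts mainly on cholesterol genes, and SREBP-1c, a product of Srebf1, acts mainly on fatty acid genes. SCAP escorts the precursors to be cleaved, and INSIG proteins hold them in the endoplasmic reticulum when sterols are plentiful. In promoters that SREBP-2 acts on, the binding site is often accompanied by a CCAAT box, which binds the factor NF-Y.

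Genes of cholesterol synthesis and of fatty acid synthesis were lower in the MCT livers, and these were the lists with the lowest medians among 40 that had tested genes. All 24 tested cholesterol genes and 20 of 23 tested lipogenic genes had a negative fold change, against 46.4% of all genes tested. No gene of 13281 passed edgeR's quasi-likelihood test after Benjamini-Hochberg adjustment over all genes (0% called, smallest adjusted p = 0.352), whereas 855 genes (6.44%) had an unadjusted p below 0.05. limma voom also called 0 genes, and DESeq2 called 24 of the 3497 genes to which it gave an adjusted p (0.686%), 15 lower (0.429%) and 9 higher (0.257%). Fold changes below are therefore given with their errors as values, and an unadjusted p is not a call.

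Upstream sequence is shown for 4 of these genes, because the cholesterol genes were low together and most of their promoters hold a CCAAT box. The 200 bases before the start site are printed 5′ to 3′ on the gene's own strand, from RefSeq on GRCm38.p6. Capitals mark CCAAT in either orientation (ATTGG is the same box on the opposite strand) and, in Hmgcs1, the sterol response element TCACNCCAC. Mvd, mevalonate diphosphate decarboxylase, is at chr8:122443423-122443622 on the minus strand, and Hmgcs1, the cytosolic HMG-CoA synthase, is at chr13:119690151-119690350 on the plus strand. Lss, lanosterol synthase, is at chr10:76531405-76531604 on the plus strand, and Fasn, fatty acid synthase, is at chr11:120824548-120824747 on the minus strand.
Mvd: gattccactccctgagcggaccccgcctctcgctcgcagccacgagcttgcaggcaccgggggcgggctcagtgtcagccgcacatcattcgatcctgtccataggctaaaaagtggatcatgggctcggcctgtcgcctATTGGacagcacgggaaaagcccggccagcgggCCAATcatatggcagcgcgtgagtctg
Hmgcs1: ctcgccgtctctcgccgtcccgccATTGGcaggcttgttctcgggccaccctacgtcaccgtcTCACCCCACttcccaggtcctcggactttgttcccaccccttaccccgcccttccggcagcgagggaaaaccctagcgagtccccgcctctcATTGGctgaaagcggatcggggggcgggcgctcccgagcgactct
Lss: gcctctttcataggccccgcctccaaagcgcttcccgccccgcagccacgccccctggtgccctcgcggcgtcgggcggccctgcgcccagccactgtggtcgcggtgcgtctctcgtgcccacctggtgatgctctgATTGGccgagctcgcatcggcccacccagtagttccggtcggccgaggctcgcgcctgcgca
Fasn: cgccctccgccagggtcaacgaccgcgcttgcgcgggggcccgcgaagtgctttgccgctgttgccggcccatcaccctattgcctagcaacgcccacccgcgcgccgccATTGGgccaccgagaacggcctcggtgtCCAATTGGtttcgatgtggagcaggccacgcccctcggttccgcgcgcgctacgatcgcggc
Within 250 bases before the start, on either strand, CCAAT was found in 15 of the 16 cholesterol genes that the RefSeq table holds (93.8%), against 37.5% of 27025 genes with a window and 40.7% of 10209 tested genes with one. It was found in 11 of 19 lipogenic genes (57.9%) and in 7 of 18 genes of mitochondrial beta-oxidation (38.9%). The element TCACNCCAC was found in 1 of the 16 cholesterol genes, Hmgcs1, and in 1.22% of all genes, and it was found in no lipogenic or beta-oxidation gene. Of 2 other motifs searched, the E-box CACGTG was found in 3 of 16 cholesterol genes (18.8%) and 2 of 19 lipogenic genes (10.5%). It was found in 6.86% of all genes and in 9.84% of tested genes with a window. ATCACNCCA was found in no gene of these lists and in 0.821% of all genes. A match is a string of letters and not evidence of binding, and the 4 motifs were chosen with the expression results known.

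The 8 libraries were not alike in ways other than diet. Total gene counts ran from 12073638 to 13250254 in the control livers and from 12590150 to 20108831 in the MCT livers. All 12 hepatocyte markers were detected in the 8 livers, and their summed level was 128700 to 202300 CPM (TMM-scaled read counts relative to library size) in control and 157700 to 205300 CPM in MCT livers. Transcripts of exocrine pancreas, summed over 22 listed genes of which Prss1 was at 0, stood at 3813 and 10280 CPM in MCT livers 3 and 4 and at no more than 33.8 CPM in the other 6. Skeletal muscle markers summed to 153.4, 1.49, 36.0 and 265.8 CPM in MCT livers 1 to 4, and to 35.2 CPM in control liver 1 against 1.09 to 2.29 CPM in the other controls. The mitochondrial share of gene counts was 6.54% to 14.1% in control and 8.90% to 18.1% in MCT livers. All 7 tested mitochondrially encoded genes were above 0, with a median log2 fold change of 0.72, and 3 had an unadjusted p below 0.05. Dbp, a clock output gene that follows time of day, ranged from 9.86 to 75.9 CPM in control and from 6.61 to 113.6 CPM in MCT livers. The part these differences play in the results below was not tested except where values without those livers are given. In bulk tissue, fewer cells of a type and less RNA per cell cannot be told apart.

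**Figure D1:**
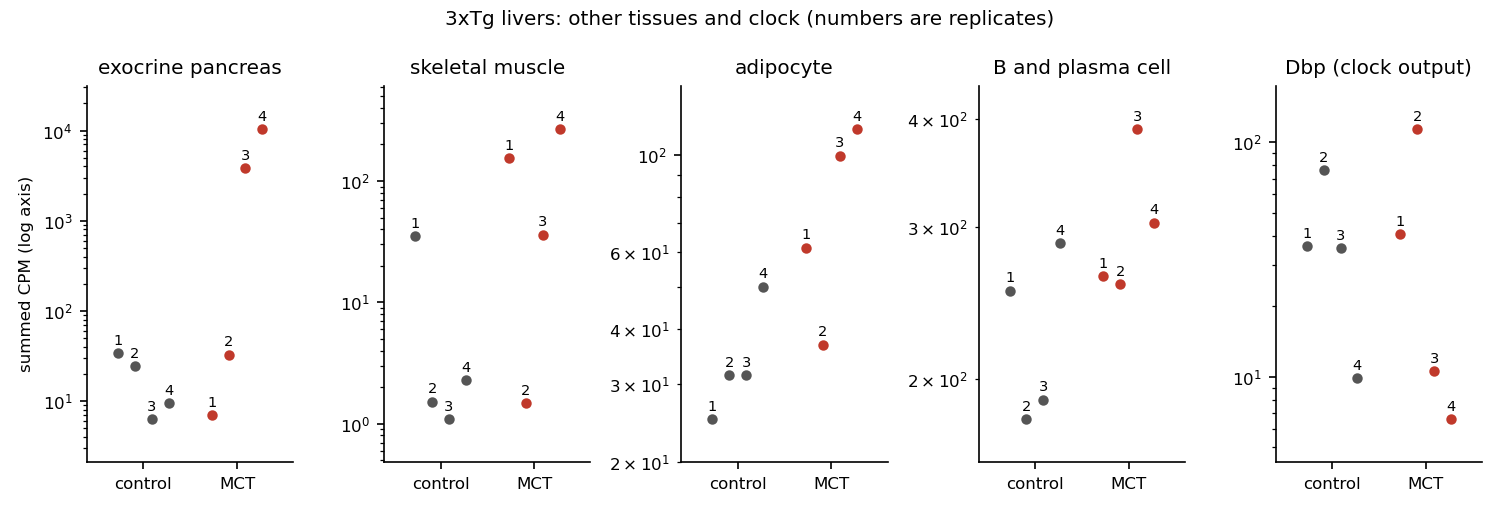
Summed CPM of listed exocrine pancreas, skeletal muscle, adipocyte, and B and plasma cell markers, and the CPM of Dbp, in each 3xTg liver (log axes; grey points control diet, red points MCT diet, numbers give the replicate). MCT livers 3 and 4 stand at 3813 and 10280 CPM of pancreas transcripts, and the other 6 livers at no more than 33.8 CPM.

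Control liver 1 and MCT liver 4 also differed from the other 6 in genes that female and male mouse livers express at different levels. Of 14 female-biased genes that reached 5 CPM in any of the 8 livers, control liver 1 was among the lowest 2 livers for 13 and MCT liver 4 for 12. Of 7 male-biased genes, control liver 1 was among the highest 2 for 5 and MCT liver 4 for 6. Slco1a1, a male-biased organic anion transporter, stood at 140.2 CPM in control liver 1 and 356.0 CPM in MCT liver 4, against 0.0835 to 17.2 CPM in the other 6 livers. Sult2a1, a female-biased sulfotransferase, stood at 1.88 and 0.846 CPM in these 2 livers, against 69.5 to 599.3 CPM in the others. The 4 Y-linked genes examined had 0 counts over all 8 livers. This list was written after the values were seen and is given as a description. Medians and counts of the 2 main lists are also given without these 2 livers and without MCT livers 3 and 4.

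**Figure D2:**
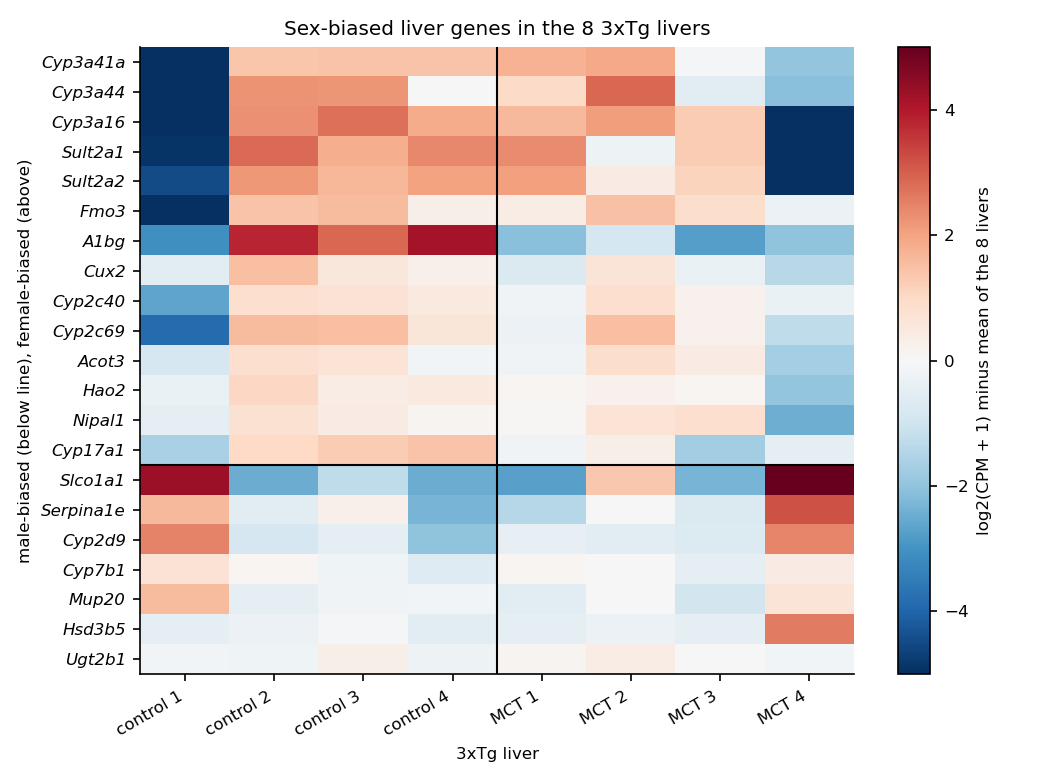
Sex-biased liver genes in the 8 3xTg livers, as log2(CPM + 1) minus the mean of the 8 livers (colour), with female-biased genes above the black line, male-biased genes below it, and control livers left of the vertical line. Control liver 1 and MCT liver 4 are low for most female-biased genes and high for Slco1a1, at 140.2 and 356.0 CPM, while A1bg is low in control liver 1 and in all 4 MCT livers.

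Genes of the mevalonate and sterol pathway and of cholesterol uptake were lower in MCT livers. The median log2 fold change of the 24 tested genes was -0.76, against 0.02 over all 13281 genes. In this list 13 genes had an unadjusted p below 0.05, all lower in MCT livers, against 2.39% of all genes in that direction. In 7 of the 24 the highest MCT liver was below the lowest control liver, against 1.48% of all genes. Without control liver 1 and MCT liver 4 the median was -0.82, with 10 genes at a p below 0.05 (6.33% of all genes in either direction). Without MCT livers 3 and 4 it was -0.69, also with 10 genes (6.11%). The groups then did not overlap in 15 genes (6.16% of all genes) and 13 genes (8.56%), and in 14 (3.29%) without control liver 1 alone; with fewer livers, groups overlap less often by construction. Leaving out single livers gave counts at such a p down to 6, without control liver 4 (5% of all genes in either direction). The count was 7 without MCT liver 4 (6.8%) and 8 without MCT liver 1 (5.24%).

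Sqle encodes squalene epoxidase, which makes the first oxygenated sterol intermediate. Its level was 78.7, 119.3, 118.7 and 226.2 CPM in control livers and 41.1, 72.1, 45.1 and 34.0 CPM in MCT livers. The lowest control liver, liver 1, was close to the highest MCT liver, liver 2, without overlap. Sqle had a log2 fold change of -1.50 ± 0.36 (edgeR adjusted p = 0.367, DESeq2 adjusted p = 0.0123).

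Mvd, whose upstream sequence above holds a CCAAT box on each strand, stood at 15.2, 27.2, 18.1 and 39.9 CPM in control livers and at 5.43, 6.59, 7.51 and 5.39 CPM in MCT livers. All 4 MCT livers lay close together and below every control liver. Mvd differed on the log2 scale by -2.01 ± 0.50 (edgeR adjusted p = 0.402), and DESeq2 gave this gene no adjusted p. Hmgcs1 was less clear, at 151.0, 327.7, 290.4 and 537.4 CPM in control and 194.3, 215.0, 254.5 and 92.1 CPM in MCT livers. Control liver 1 lay below 3 of the MCT livers, and the log2 fold change was -0.79 ± 0.41 (edgeR adjusted p = 0.813).

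**Figure D3:**
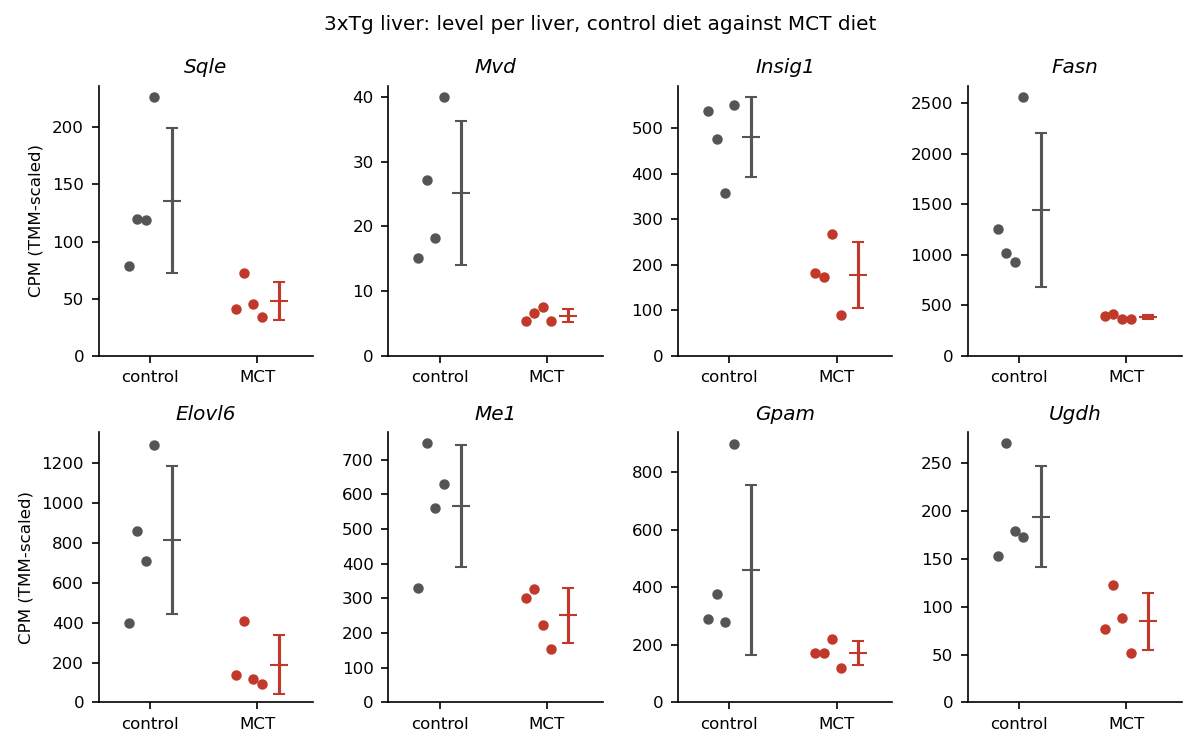
TMM-scaled CPM of 8 genes in each 3xTg liver (grey points control diet, red points MCT diet; bars are the mean ± SD of 4 livers; axes start at 0). Mvd stands at 15.2 CPM or more in every control liver and at 7.51 CPM or less in every MCT liver, while Elovl6 overlaps through MCT liver 2 at 409.5 CPM.

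Against 6.44% of all genes in either direction, 1 of 17 tested regulators of sterol and lipid transcription had an unadjusted p below 0.05. This was Insig1, itself a gene that SREBPs switch on, which stood at 537.8, 475.3, 356.8 and 549.3 CPM in control and 181.5, 173.4, 266.7 and 90.0 CPM in MCT livers. The groups were well apart, with a log2 fold change of -1.43 ± 0.38 (edgeR adjusted p = 0.461, DESeq2 adjusted p = 0.0303). The 2 factor genes themselves overlapped between diets. Srebf1 differed by -0.58 ± 0.34 and Srebf2 by -0.26 ± 0.20 on the log2 scale (edgeR adjusted p = 0.919 and 0.997). The median over the 17 regulators was -0.03, close to that of all genes.

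Genes of fatty acid synthesis were lower as well. The median log2 fold change of the 23 tested genes was -0.99. Of these, 15 had an unadjusted p below 0.05, all lower in MCT livers (2.39% of all genes in that direction). In 8 the groups did not overlap (1.48% of all genes lower without overlap). Without control liver 1 and MCT liver 4 the median was -1.06, with 16 genes at a p below 0.05 (6.33% of all genes in either direction). Without MCT livers 3 and 4, the pair with pancreas transcripts, the median was -0.57 and 6 genes had a p below 0.05 (6.11%). The groups did not overlap in 18 genes (6.16% of all genes) and 8 genes (8.56%) in these fits. Without control liver 1 alone they did not overlap in 18 genes (3.29%). Elovl2, Scd2 and Elovl5, of fatty acid elongation and desaturation, were the 3 genes above 0.

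The upstream sequence above of Fasn, which builds palmitate, holds 3 CCAAT matches. Those beginning 62 and 59 bases before the start site overlap, as CCAATTGG read on opposite strands. Fasn had the clearest separation. It stood at 1261, 1022, 925.1 and 2562 CPM in control livers and at 390.8, 410.3, 365.5 and 365.1 CPM in MCT livers. The MCT livers were almost equal, and control liver 4 was far above the other controls. Fasn had a log2 fold change of -1.91 ± 0.39 (edgeR adjusted p = 0.352, DESeq2 adjusted p = 0.000556).

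Elovl6, which lengthens palmitate to stearate, stood at 400.5, 862.1, 712.0 and 1293 CPM in control and 137.5, 409.5, 119.0 and 91.8 CPM in MCT livers. MCT liver 2 was just above control liver 1, so the groups overlapped, with a log2 fold change of -2.11 ± 0.55 (edgeR adjusted p = 0.452, DESeq2 adjusted p = 0.0336). Me1, malic enzyme, which supplies NADPH for the pathway, stood at 331.0, 748.7, 560.2 and 629.6 CPM in control and 301.7, 327.2, 222.0 and 153.3 CPM in MCT livers. Control liver 1 was only just above the highest MCT liver, and the log2 fold change was -1.18 ± 0.32 (edgeR adjusted p = 0.477, DESeq2 adjusted p = 0.0427).

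Gpam, which adds the first acyl chain in triglyceride synthesis, stood at 291.0, 375.2, 279.8 and 898.7 CPM in control and 171.3, 173.2, 221.2 and 121.0 CPM in MCT livers. The groups did not overlap, and control liver 4 was again the highest. The log2 fold change was -1.43 ± 0.35 (edgeR adjusted p = 0.367, DESeq2 adjusted p = 0.0123). Mid1ip1, whose protein promotes assembly of acetyl-CoA carboxylase, differed by -1.07 ± 0.25, and Aacs, which activates acetoacetate for lipid synthesis, by -1.45 ± 0.42. Neither overlapped between diets, and DESeq2 called both (adjusted p = 0.0141 and 0.0432), while edgeR did not (adjusted p = 0.367 and 0.497). Acly, which makes cytosolic acetyl-CoA from citrate, differed by -1.09 ± 0.34, and Acaca, acetyl-CoA carboxylase, by -0.63 ± 0.25 (edgeR adjusted p = 0.548 and 0.678). Both overlapped between diets. Scd1, the main liver desaturase, was spread from 10530 to 25150 CPM in control and from 6565 to 15090 CPM in MCT livers, with a log2 fold change of -0.66 ± 0.51 (edgeR adjusted p = 0.993).

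Genes of other kinds were also among those with the smallest p whose groups did not overlap. Ugdh, which makes UDP-glucuronate, stood at 153.2, 270.9, 178.5 and 173.2 CPM in control and 76.7, 122.1, 88.2 and 51.4 CPM in MCT livers. Every MCT liver was below every control liver, and the log2 fold change was -1.20 ± 0.24 (edgeR adjusted p = 0.352, DESeq2 adjusted p = 0.00157). Rpia, ribose-5-phosphate isomerase of the pentose phosphate pathway, stood at 9.39, 10.4, 10.7 and 10.6 CPM in control and 6.51, 5.36, 5.36 and 4.12 CPM in MCT livers. The control livers were nearly equal, and the log2 fold change was -0.95 ± 0.21 (edgeR adjusted p = 0.367). Ppp1r3b, which brings a phosphatase to glycogen, stood at 314.5, 280.3, 357.6 and 640.7 CPM in control and 163.3, 88.8, 243.3 and 211.4 CPM in MCT livers. The groups did not overlap, and the log2 fold change of Ppp1r3b was -1.17 ± 0.28 (edgeR adjusted p = 0.367, DESeq2 adjusted p = 0.0123). Akr1c19, of the aldo-keto reductase family, whose close relatives may share reads, differed by -1.28 ± 0.30, and the kinase gene Snrk by -0.72 ± 0.18. DESeq2 called both (adjusted p = 0.0123 and 0.0303). The list of 16 genes of glycolysis, glucose and fructose uptake had a median of -0.07. In it 1 gene was lower and 1 higher at an unadjusted p below 0.05, against 2.39% and 4.05% of all genes.

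Genes of fat burning had medians near that of all genes, and those of ketone synthesis had a median slightly above it. The 20 tested genes of mitochondrial beta-oxidation and the carnitine shuttle had a median log2 fold change of 0.04, and none had an unadjusted p below 0.05. Over all genes 6.44% had such a p in either direction, the share to set beside the counts of the next lists. The 26 peroxisomal and microsomal targets of PPARA, the receptor that fatty acids activate, had a median of -0.04, with 1 gene at a p below 0.05. The 8 genes of ketone synthesis and export had a median of 0.13, again with 1 such gene. This median lay within the quartiles of all genes, -0.13 and 0.18. The mean log2 level of the ketone list, relative to the control mean, did not overlap between diets. It was -0.04 to 0.03 in control and 0.14 to 0.21 in MCT livers. Acat1, the mitochondrial acetoacetyl-CoA thiolase, was higher in every MCT liver than in any control liver, by the narrowest margin, 450.4 against 449.7 CPM. Its log2 fold change was 0.47 ± 0.19 (edgeR adjusted p = 0.686). Among 10 tested genes of medium-chain fatty acid activation and use, whose median was -0.03, the 1 gene at a p below 0.05 was Crot, a carnitine acyltransferase of peroxisomes for medium chains. It stood at 435.5, 406.2, 458.0 and 323.0 CPM in control and 624.3, 698.4, 566.1 and 414.7 CPM in MCT livers. MCT liver 4 lay within the control range, and the log2 fold change was 0.51 ± 0.21 (edgeR adjusted p = 0.696).

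**Figure D4:**
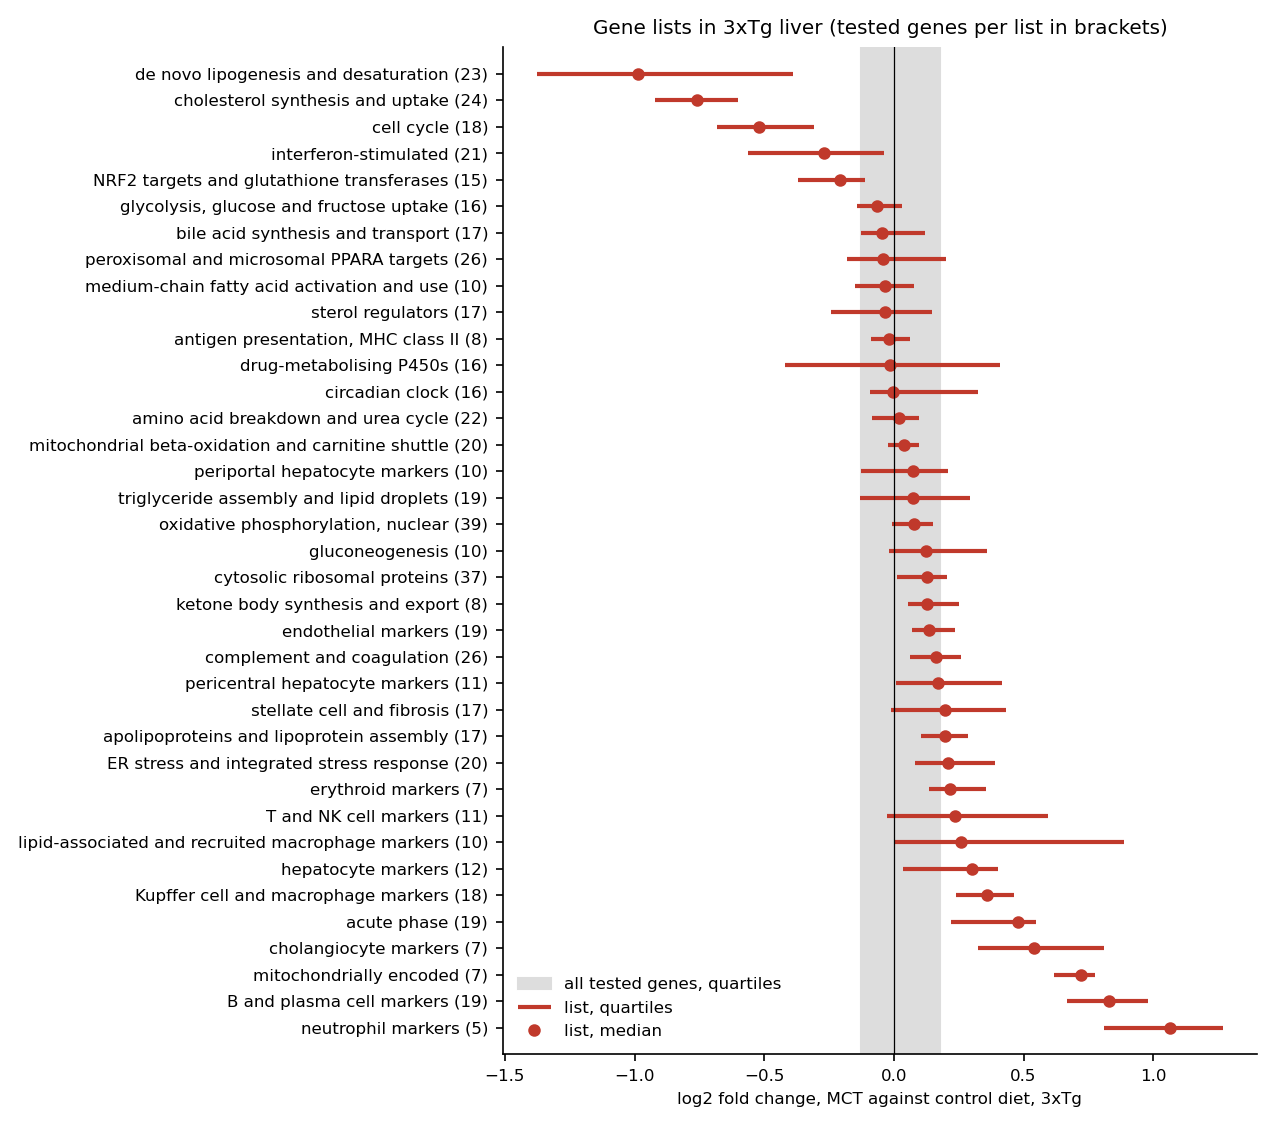
Median log2 fold change, MCT against control diet in 3xTg, of 37 gene lists (points) with their quartiles (bars) and the quartiles of all 13281 tested genes (grey band); the pancreas, muscle and adipocyte lists, with medians of 8.33, 3.31 and 2.88, lie outside the axis and are left out. Fatty acid synthesis at -0.99 and cholesterol synthesis at -0.76 have the lowest medians.

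Among secreted liver proteins, 18 of 19 acute phase genes were above 0, against 53.6% of all genes, with a median of 0.48 and 3 genes at an unadjusted p below 0.05, against 4.05% of all genes in that direction. Fgg, the fibrinogen gamma chain, stood at 3149, 3241, 3304 and 2565 CPM in control and 4264, 4725, 4830 and 4690 CPM in MCT livers. The groups did not overlap, and the log2 fold change was 0.59 ± 0.22 (edgeR adjusted p = 0.643). Without control liver 4 the list had 1 gene at a p below 0.05 in place of 3, and its median was 0.33; without control liver 1 it had 5. Cyp2c50, a P450 with close relatives, stood at 221.2 to 756.4 CPM in control and 645.3 to 1374 CPM in MCT livers, which overlapped, with a log2 fold change of 1.16 ± 0.36 (edgeR adjusted p = 0.548).

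The list with the third lowest median was the cell cycle, at -0.52, with 16 of 18 tested genes below 0 (46.4% of all genes) and 1 lower at an unadjusted p below 0.05 (2.39% of all genes). That gene was Rrm2, a ribonucleotide reductase subunit, at 4.52, 3.88, 3.52 and 5.49 CPM in control and 1.84, 2.20, 1.25 and 1.80 CPM in MCT livers. The groups of Rrm2 did not overlap (log2 fold change -1.29 ± 0.33, edgeR adjusted p = 0.452), at levels low in all 8 livers. Without MCT livers 3 and 4 the median of the list was -0.18. Interferon-stimulated genes had a median of -0.27, with 18 of 21 below 0 (46.4% of all genes) and 4 lower at a p below 0.05 (2.39% of all genes). Oas1a, an antiviral sensor of that list with close relatives, stood at 1.62, 2.21, 2.58 and 2.99 CPM in control and 1.25, 1.42, 0.715 and 1.59 CPM in MCT livers. The groups touched without overlap, and the log2 fold change was -0.89 ± 0.31 (edgeR adjusted p = 0.563). Without MCT livers 3 and 4 the interferon median was -0.11, with 1 gene at a p below 0.05, and without MCT liver 2 it was -0.43, with 7.

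Genes of other cell types were higher in some MCT livers. Of 19 tested B and plasma cell markers, 18 were above 0 (53.6% of all genes), with a median of 0.83. An unadjusted p below 0.05 was found for 9, all higher (4.05% of all genes), but none was without overlap between diets. With library size scaling the median was 0.67 and 1 gene had such a p, against 1.88% of all genes higher. Summed over all 22 listed markers, tested or not, the level was 179.6 to 287.2 CPM in control and 257.7 to 389.4 CPM in MCT livers. Igkc, the kappa light chain, stood at 26.7, 10.9, 16.6 and 29.6 CPM in control and 34.0, 27.8, 111.9 and 41.7 CPM in MCT livers, with MCT liver 3 far above the rest. Without MCT livers 3 and 4 the list's median was 0.41 and no gene had a p below 0.05. Leaving out single livers gave counts from 0, without control liver 3, to 10, without control liver 4 or MCT liver 2. The count was 1 without control liver 2, 2 without MCT liver 3, 3 without control liver 1, 5 without MCT liver 4 and 6 without MCT liver 1.

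In 1.84% of all genes every MCT liver was above every control liver, and those with the smallest p were of mixed kinds. Thy1, a surface protein of T cells, neurons and some fibroblasts, stood at 1.28, 1.52, 1.17 and 1.74 CPM in control and 2.92, 2.00, 6.43 and 3.70 CPM in MCT livers. MCT liver 3 was the highest, and the log2 fold change was 1.38 ± 0.32 (edgeR adjusted p = 0.367). The transgenes of this line are driven by a Thy1 promoter, and whether reads from them were counted on Thy1 was not tested; in WT livers, which lack them, Thy1 averaged 1.46 ± 0.26 CPM on control diet and 2.22 ± 0.55 CPM on MCT. Cxcl13, a chemokine that attracts B cells, stood at 5.55, 3.12, 2.58 and 5.35 CPM in control and 71.2, 7.82, 17.2 and 9.04 CPM in MCT livers. MCT liver 1 was far above the others, and the log2 fold change was 2.66 ± 0.68 (edgeR adjusted p = 0.452). Prkcb, protein kinase C beta, was also highest in that liver, at 16.4 CPM against 4.86 to 6.33 CPM in the other MCT livers and 3.67 to 4.57 CPM in control livers. Adora1, the adenosine A1 receptor, was more even, at 11.6, 7.53, 7.11 and 9.03 CPM in control and 21.2, 14.1, 12.8 and 20.1 CPM in MCT livers (log2 fold change 0.95 ± 0.28, edgeR adjusted p = 0.497). The others were Rnps1, Ifi205, Tedc2 and Shroom4, with log2 fold changes of 1.26, 1.21, 1.39 and 0.69. Of the 9 genes DESeq2 called higher, 7 were genes of pancreatic enzymes, among them Cpa1, Cela1, Cel and Pnlip. The other two were Gm4952 and Serpina3c, and Serpina3c stood at no more than 1.22 CPM in any of the 8 livers.

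The comparison with WT livers asks whether the diet's effect differs between the 3xTg line and B6129SF2/J mice. Effects of the transgenes and of any other difference between these lines cannot be told apart here. WT MCT liver 3 held 21390 CPM of pancreas transcripts, against 7.93 to 15.02 CPM in the other WT MCT livers, so values without it are given too. For cholesterol genes the WT livers also had a negative median, -0.62, with 21 of 24 genes below 0 (48.6% of all genes) and 7 lower at an unadjusted p below 0.05 (2.33% of all genes). Without WT MCT liver 3 the median was -0.59, with 3 genes lower at such a p (3.72% of all genes in either direction). The count was also 3 without WT MCT liver 4 (5.78%). It was 2 without WT control liver 3 (4.75%) or WT MCT liver 2 (5.3%), and 1 without WT control liver 4 (5.47%). Without WT MCT liver 1 it was 15, where 11.2% of all genes had such a p. Neat1 stood at 18.6 CPM in WT MCT liver 1 and at 19.6 and 37.4 CPM in WT control livers 3 and 4. In the other WT livers on these diets it was 4.28 to 7.65 CPM, and the part this plays was not tested. For none of the 24 did the test of the difference between the genotypes' responses give an unadjusted p below 0.05, and leaving out livers gave at most 2 such genes. Sqle differed by -0.93 ± 0.36 in WT, and its response in 3xTg minus that in WT was -0.57 ± 0.50 (adjusted p = 1). Mvd differed by -1.16 ± 0.49 in WT, and the difference between responses was -0.85 ± 0.68 (unadjusted p = 0.226, adjusted p = 1 by edgeR).

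For lipogenic genes the WT median was 0.06, and 11 of 23 genes were below 0. Without WT MCT liver 3 the median was -0.13, with 14 below 0. The difference between responses had a median of -0.73 over the list, and 11 of the 23 had an unadjusted p below 0.05, against 2.16% of all genes. Without WT MCT liver 3 the median of the difference was -0.69, with 6 genes at such a p (2.02% of all genes), and without 3xTg control liver 4 it was -0.46, also with 6 (2.17%). Without 3xTg MCT livers 3 and 4 it was -0.54, with 4 genes (3.73%), and without 3xTg control liver 1 and MCT liver 4 it was -0.89, with 11 (2.77%). No gene of 13281 passed the edgeR test of that difference after adjustment (0% called; 287 had an unadjusted p below 0.05), and DESeq2 and limma voom called 0 as well. Elovl6 differed by 0.06 ± 0.53 in WT, with a difference between responses of -2.17 ± 0.75 (unadjusted p = 0.0084, adjusted p = 1). Me1 differed by 0.34 ± 0.32 in WT, with a difference between responses of -1.51 ± 0.45 (unadjusted p = 0.00295, adjusted p = 1). Without WT MCT liver 3 the WT values were -0.21 ± 0.57 for Elovl6 and -0.05 ± 0.31 for Me1, and the differences between responses were -1.89 ± 0.77 and -1.12 ± 0.42. The control levels of the 2 genotypes also stood apart: Elovl6 averaged 816.9 ± 371.1 CPM in 3xTg and 259.8 ± 153.0 CPM in WT control livers, and Me1 567.4 ± 175.7 and 207.0 ± 29.5 CPM. On the MCT diet the means were 189.5 ± 147.9 and 271.3 ± 154.7 CPM for Elovl6, and 251.0 ± 79.1 and 261.2 ± 128.1 CPM for Me1. The difference between responses therefore includes the higher level of the 3xTg control livers.

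**Figure D5:**
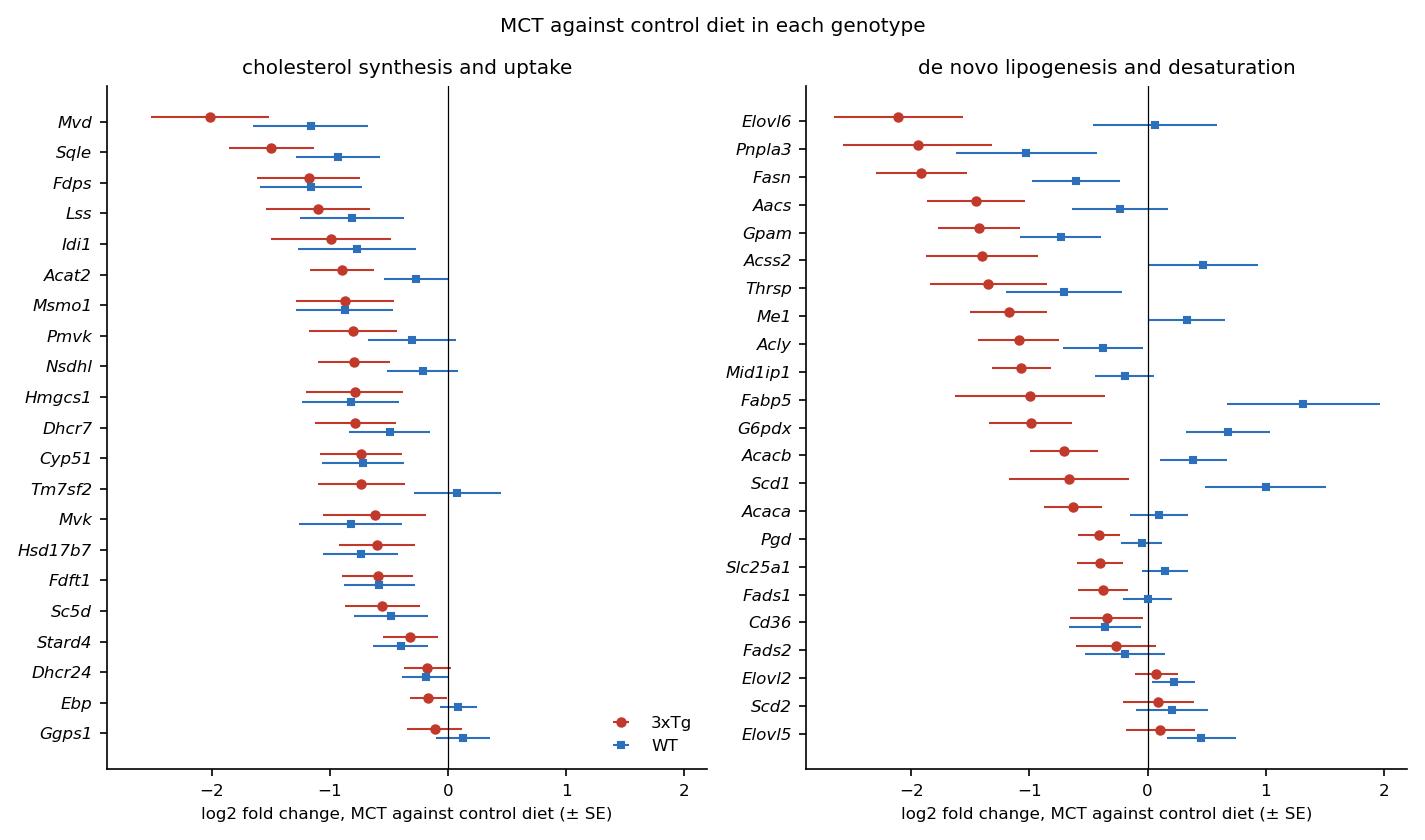
Log2 fold change ± SE of MCT against control diet for tested genes of cholesterol synthesis and uptake (left, some not shown) and of de novo lipogenesis (right), in 3xTg (red circles) and WT livers (blue squares). Over the whole list 24 of 24 cholesterol genes lie below 0 in 3xTg and 21 of 24 in WT, with medians of -0.76 and -0.62, while lipogenic genes have medians of -0.99 in 3xTg and 0.06 in WT.

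Some genes had fold changes of opposite sign in the 2 genotypes. G6pc, glucose-6-phosphatase, stood at 236.4, 133.1, 106.2 and 97.7 CPM in 3xTg control and 190.4, 252.8, 263.1 and 407.5 CPM in 3xTg MCT livers. Only control liver 1 overlapped with the MCT livers. The log2 fold change was 0.96 ± 0.35 in 3xTg and -0.84 ± 0.35 in WT, with a difference of 1.79 ± 0.49 (unadjusted p = 0.00138, edgeR adjusted p = 1). Pltp, phospholipid transfer protein, stood at 67.6, 110.4, 121.4 and 146.4 CPM in 3xTg control and 67.6, 56.9, 67.5 and 61.2 CPM in 3xTg MCT livers. Its log2 fold change was -0.82 ± 0.29 in 3xTg and 0.85 ± 0.29 in WT, with a difference of -1.67 ± 0.40 (unadjusted p = 0.000421, edgeR adjusted p = 1). Without WT MCT liver 3 the differences were 1.596 ± 0.493 for G6pc and -1.38 ± 0.38 for Pltp.

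The ketogenic diet was compared with the same control livers. Against those controls the KD livers had a median of -1.60 for lipogenic genes, of which edgeR called 14 lower (2.54% of all genes; 5.39% were called in either direction), and of -0.02 for cholesterol genes, of which it called 1 lower. Compared directly, KD and MCT livers of 3xTg mice differed in 1065 of 13281 genes (8.02%), with 477 higher and 588 lower on KD. The KD and MCT libraries also stood apart in composition. TMM factors were 1.193 to 1.315 in KD and 0.833 to 0.952 in MCT livers. The mitochondrial share was 6.11% to 7.37% in KD and 8.90% to 18.1% in MCT livers. The part this plays in the KD comparison was not tested. Of 24 cholesterol genes, 6 were called higher on KD than on MCT, against 3.59% of all genes in that direction, and the list's median difference was 0.81. Without MCT livers 3 and 4 none was called (0.869% of all genes higher; 10 had an unadjusted p below 0.05), and the median was 0.82. The count was 3 without control liver 1 and MCT liver 4 (2.71% of all genes higher). It was also 3 without MCT liver 1 (2.67%), MCT liver 4 (2.78%), KD liver 1 (2.13%) or KD liver 4 (4.18%). With library size scaling it was 19, in a fit that called 31.6% of all genes higher. Sqle was higher on KD by 1.74 ± 0.36 and Hmgcs1 by 1.96 ± 0.42 on the log2 scale (edgeR adjusted p = 0.00559 and 0.00715). These differences were 1.51 ± 0.47 and 1.84 ± 0.53 (edgeR adjusted p = 0.0925 and 0.0716) without MCT livers 3 and 4. Of 23 lipogenic genes, 4 were called lower (4.43% of all genes) and 1 higher on KD than on MCT. The median difference of the lipogenic list was -0.37, and with library size scaling it was 0.05. Without MCT livers 3 and 4 the counts were 3 and 1 (1.39% and 0.869% of all genes). Without control liver 1 and MCT liver 4 they were 5 and 1 (3.49% and 2.71%). The count of lower genes was 2 without KD liver 2 (2.39%), KD liver 3 (1.83%) or MCT liver 2 (4.18%). Acaca differed by -1.85 ± 0.25 on the log2 scale (edgeR adjusted p = 0.000256). Acat1 of the ketogenic pathway was higher on KD than on MCT by 0.81 ± 0.19 (edgeR adjusted p = 0.0108), and by 0.83 ± 0.24 (edgeR adjusted p = 0.0697) without MCT livers 3 and 4. The count of 1065 ranged from 499 to 1189 when single livers were left out; it was 499, 603 and 642 without KD livers 3, 1 and 2, and 631 without MCT liver 3.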

How the data were processed

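PolyA RNA of 24 livers was sequenced. The deposited values are whole-number read counts per gene, and the authors used Trimmomatic, STAR and GRCm38, per the submitters' processing notes. Whether molecular identifiers were used is not given in the sources used here. Entries that name no gene held 23.7% to 28.8% per library among the 8 livers and were left out.

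All 24 libraries were fitted together with edgeR 4.0.16 (R 4.3.3; TMM scaling, filterByExpr, quasi-likelihood test, 18 residual degrees of freedom, Benjamini-Hochberg adjustment at 0.05). The legacy quasi-likelihood form was run first; the current form was adopted after its result was seen, both gave 0 calls, and the legacy form is kept as an alternative. Alternatives were RLE factors, library size scaling, no filter, DESeq2 1.42.0, limma 3.58.1 voom, the compared groups alone, a replicate block and leaving out livers. CPM values are TMM-scaled. The design gives 4 mice per group, so the spread is between animals. The smallest chi-square per gene over all 276 pairs of the 24 libraries was 25.8, so no pair agreed within sampling noise. In simulated counts for this comparison (13188 genes), the test recovered 100% and 60% of genes at log2 changes of 2 and 1. It recovered 81.2% and 50% at -2 and -1, with 6 false calls. Apart from the planted changes, the simulated counts had the same mean level per gene in all libraries. They held no single livers with transcripts of other tissues or shifted sex-biased genes. The recovered shares therefore need not hold for these livers.

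The members, the 41 gene lists and the rule for named genes were chosen with earlier results of these data known. The rule takes the 8 smallest p in each direction among genes of at least 1 CPM without overlap (unnamed models, pancreas and immunoglobulin genes left out), 28 fixed genes, up to 4 per list and DESeq2 calls; a selection of the 190 genes is printed, and some results are not reported here. Gene family members may share reads.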

Additional observations from a re-analysis of the deposited data

Results flagged for a closer look

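Sets of 4 livers were scanned over the printed genes and library measures with Dixon's outlier test. It asks whether a liver's gap to its nearest neighbour exceeds a critical share of the group's range. Of 146 sets, 14 held such a liver. For normally distributed values chance gives about 1 in 20 such sets. CPM values need not be so distributed, so the count of 14 cannot be judged against that share. In MCT livers these were Elovl6 in liver 2 (409.5 CPM), Akr1c19 in liver 3 (17.7 CPM), Cxcl13 in liver 1 (71.2 CPM), Tedc2 in liver 4 (35.5 CPM), Prkcb in liver 1 (16.4 CPM), Igkc in liver 3 (111.9 CPM) and Serpina3c in liver 4 (1.22 CPM). The TMM factor of MCT liver 3 (0.833) and the summed neutrophil markers of MCT liver 1 (24.9 CPM) also stood apart. In control livers they were Gpam in liver 4 (898.7 CPM), Ifi205 in liver 3 (1.88 CPM), Prkcb in liver 2 (4.57 CPM), Xist in liver 4 (228.1 CPM) and the summed skeletal muscle markers of liver 1 (35.2 CPM).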

How the results depend on the processing

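The count of genes changed between MCT and control diet in 3xTg was 0 in every alternative run except DESeq2, with 24, and the fit without MCT livers 3 and 4, with 1 (Cd209g, log2 fold change 6.18, adjusted p = 0.00187; named after its value was seen). The cause was not tested. It was 0 without each of the 8 livers, and the count for the difference between genotypes was 0 in all alternatives run. For KD against MCT the count of 1065 became 4384 with library size scaling (4193 higher, 191 lower), 407 with the compared groups alone and 312 without MCT livers 3 and 4; the last 2 fits use fewer livers. It ranged from 499 to 1189 without single livers. The median of the lipogenic list was -0.57 without MCT livers 3 and 4. The 46 genes of the printed selection kept their direction in all 827 values over 18 alternatives. Many of these genes were picked for a small p or for groups without overlap in the same livers. Their kept direction was therefore largely set by the selection and is no independent support. Of the 827, 14 results, all with DESeq2, passed the threshold that edgeR did not reach. Library size scaling put the median of all genes at -0.12. Replicate numbers did not pair the livers (correlations of same-numbered livers -0.07, 0.21, 0.12 and 0.15); with the replicate block the counts were 0, 0 and 1116. The fits without control liver 1 and MCT liver 4, with the legacy form, and the list counts of the WT, genotype and KD comparisons without livers, were added after the data were seen. Depth limits genes near 1 CPM, such as Serpina3c and Oas1a.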

Other observations

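A1bg, a female-biased plasma protein gene, was low in all 4 MCT livers, also in those whose other female-biased genes were high. It stood at 3.24, 497.8, 256.0 and 627.0 CPM in control and 7.35, 18.4, 4.20 and 7.88 CPM in MCT livers of 3xTg mice. Control liver 1, which was low for most female-biased genes, was the lowest of all 8. The log2 fold change was -5.19 ± 1.71 (edgeR adjusted p = 0.548, DESeq2 adjusted p = 0.0417). On the ketogenic diet A1bg was also low in most 3xTg livers, at 31.45, 5.63, 12.14 and 418.9 CPM, so a low level was not particular to the MCT diet. In WT mice A1bg stood at 53.8, 8.70, 390.8 and 280.9 CPM on control diet and 26.8, 8.22, 22.0 and 4.25 CPM on MCT, where control liver 2 lay within the MCT range (log2 fold change -3.58 ± 1.59, edgeR adjusted p = 0.810).

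The 19 tested endothelial markers had a median log2 fold change of 0.14 and the 17 stellate cell and fibrosis genes one of 0.20, against 0.02 over all genes. At an unadjusted p below 0.05, 3 endothelial markers were higher and 1 lower, and 2 stellate genes were higher (4.05% of all genes higher, 2.39% lower). With library size scaling the endothelial median was -0.0069, with 10 of 19 below 0. Pecam1, an endothelial adhesion protein, stood at 37.6, 34.9, 33.6 and 38.4 CPM in control and 60.0, 44.6, 48.4 and 43.5 CPM in MCT livers, without overlap (log2 fold change 0.44 ± 0.15, edgeR adjusted p = 0.548). Vwf, the endothelial clotting factor, differed by 0.77 ± 0.27, and Des, the intermediate filament of stellate and muscle cells, by 1.33 ± 0.43. Des was highest in MCT liver 4, at 21.6 CPM, the liver with the most skeletal muscle transcripts. Clec4g, a lectin of sinusoidal endothelium, stood at 42.4, 56.2, 49.95 and 65.6 CPM in control and 34.7, 36.1, 36.5 and 40.4 CPM in MCT livers, lower without overlap (log2 fold change -0.54 ± 0.25, edgeR adjusted p = 0.771). Of 5 tested neutrophil markers, all were above 0, with a median of 1.07. Summed over all 12 listed neutrophil markers, tested or not, the level was 5.94 to 7.85 CPM in control and 11.1 to 24.9 CPM in MCT livers. Serpina3c, a serpin gene, averaged 0.0963 ± 0.0378 CPM in 3xTg and 73.7 ± 37.8 CPM in WT control livers.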
